A study of Mus musculus with 18 samples.

Results

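Described here are 10 genes of MHC class I antigen presentation in mouse leukaemia cells that carry guide RNAs against Jmjd1c. They are 3 class I heavy chains (H2-K1, H2-D1 and H2-T23), the light chain B2m, the peptide loading and transport genes Tapbp, Tap1 and Tap2, the immunoproteasome subunits Psmb8 and Psmb9, and the transactivator Nlrc5. They were chosen by name, are all among the 23899 genes of the table, and 9 of them averaged 1 FPKM or more over the libraries (fragments per kilobase of transcript, scaled to library size) and were tested with all 11550 genes of that kind. Nlrc5 was below that level.

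The Cas9-expressing cells derive from a mouse primary leukaemia and carry MLL-AF9, an oncoprotein made by fusion of the genes KMT2A and MLLT3, and all groups grew in 10% serum with 10 ng/ml mouse interleukin-3. The 18 poly(A) RNA libraries form 6 groups of 3: a control guide against Renilla luciferase, mock, and 4 guides against Jmjd1c, which the labels name e21.1, e20.1, e12.4 and e12.3. JMJD1C belongs to the histone demethylases that act on H3K9, and the guides were aimed at its jumonji and zinc finger domains. Which guide targets which domain, how mock cells were handled, whether cells were clones, and whether libraries of a group came from separate cultures is not given in the labels. The p-values therefore measure only the spread between these libraries, which may be technical.

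Class I molecules show peptides from inside the cell to CD8 T cells and natural killer cells. The proteasome cuts the peptides, and its inducible subunits Psmb8 and Psmb9 replace constitutive ones. The transporter Tap1/Tap2 moves peptides into the endoplasmic reticulum, where tapasin (Tapbp) helps to load them onto a heavy chain paired with β2-microglobulin (B2m). H2-K1 and H2-D1 are the classical heavy chains of the mouse, and H2-T23 (Qa-1) is a non-classical one that binds inhibitory receptors on natural killer cells. Interferon, NF-kB and the transactivator Nlrc5 are known to drive these genes through short promoter elements.

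The promoters of these genes are shown because those elements are where the known regulators act. RefSeq (GRCm38.p6) holds promoters of 8 members, and the 250 bases before the start of H2-K1 and of B2m are given, each 5′ to 3′ on the strand of the gene. Capitals mark GGGATTCCC, a κB-type sequence, TGACGC, a CREB/ATF-type sequence, GAAANNGAA, letters from the core of interferon-stimulated response elements, and ATTGG, the reverse of the NF-Y box CCAAT. H2-K1 is read on the minus strand (chr17:34000348-34000597) and B2m on the plus strand (chr2:122147437-122147686).
H2-K1: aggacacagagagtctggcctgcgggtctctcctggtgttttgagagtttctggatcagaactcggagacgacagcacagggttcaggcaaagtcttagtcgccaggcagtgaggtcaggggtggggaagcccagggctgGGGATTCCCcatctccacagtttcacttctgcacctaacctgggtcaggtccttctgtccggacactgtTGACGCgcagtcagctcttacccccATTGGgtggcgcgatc
B2m: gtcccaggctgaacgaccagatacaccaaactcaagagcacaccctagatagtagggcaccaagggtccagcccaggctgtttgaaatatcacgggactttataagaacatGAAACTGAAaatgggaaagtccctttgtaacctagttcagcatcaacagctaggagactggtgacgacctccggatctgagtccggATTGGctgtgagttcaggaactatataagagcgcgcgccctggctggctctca

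The 30 bases around the κB-type sequence are set beside those of the other genes to compare the class I promoters with each other. H2-D1 is on the plus strand (chr17:35262914-35262943), and so is H2-Q6 (chr17:35424668-35424697), another class I gene. The interferon-type sequence of H2-T23 is on the plus strand (chr17:36032805-36032834), opposite to the gene, and that of B2m is at chr2:122147538-122147567 on the plus strand.
H2-K1 κB-type: cccagggctgGGGATTCCCcatctccacag
H2-D1 κB-type: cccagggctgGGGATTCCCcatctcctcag
H2-Q6 κB-type: cccatggctgGGGATTCCCcatctccccag
B2m interferon-type: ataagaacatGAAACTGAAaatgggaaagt
H2-T23 interferon-type: tgtgtctttatGAAAGAGAAagcagtagga

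H2-D1 matched H2-K1 at 29 of these 30 bases and H2-Q6 at 28. GGGATTCCC was found in 0.301% of the 32851 promoter windows, which is 99 windows of 95 genes, and all motifs were searched on both strands. GAAANNGAA occurred in 7.13% of windows and, among the members, in B2m and H2-T23. Only exact matches were sought, so a promoter without these letters, such as that of H2-K1 or H2-D1, is not shown to lack an interferon element. TGACGC occurred in 6.12% of windows and in H2-K1 and H2-D1. CCAAT occurred in 33.8% of windows and in 7 of the 8 members with a promoter (not Psmb8), and GGGCGG, an Sp1-type sequence, in 32.7% of windows and in Tap1, Tapbp and Psmb9. Matches of different motifs did not overlap. The other class I genes with GGGATTCCC were H2-Q6 and H2-Q7, which stood at 0.118 and 0.466 FPKM or less in every guide library.

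In the GENCODE vM21 annotation (GRCm38/mm10), 8 members lie within 2117 kb of chromosome 17. Their order is Tapbp (33915899 to 33929292), H2-K1 (33996017 to 34000347), Psmb9 (34181987 to 34187764), Tap1 (34187553 to 34197225), Psmb8 (34197721 to 34201454), Tap2 (34203527 to 34216321), H2-D1 (35262730 to 35267499) and H2-T23 (36029773 to 36032855). Psmb9, Tap1, Psmb8 and Tap2 share 34.3 kb. Psmb9 and Tap1 are read from opposite strands, and their RefSeq starts have 225 bases between them. B2m is on chromosome 2 (122147686 to 122153083) and Nlrc5 on chromosome 8 (94434356 to 94527272). The heavy chains resemble each other: 22.8% of the 31-base words in H2-K1 transcripts, 26.7% in H2-D1 and 24.5% in H2-T23 also occur in transcripts of other genes, against 0% in B2m and Psmb9. The split of reads between the heavy chains and these other genes is therefore uncertain.

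Estimated depth was 20.8 to 183 M reads a library (median 32.2), so that a 2 kb transcript at 1 FPKM was seen by 41.5 to 367 reads. Jmjd1c itself stood at 78.3 ± 12.26 FPKM (SD, n = 3) with Renilla, 74.5 ± 2.69 (n = 3) with mock and 64.1 ± 9.24 (n = 12) with the guides, and its log2 difference from Renilla of -0.29 (SE 0.13) did not pass the test (limma adjusted p = 0.190). All 9 myeloid leukaemia markers were expressed, whereas the 5 B cell and 4 erythroid markers were each under 1 FPKM in all 18 libraries. Of the myeloid markers, 3 granule genes were called lower with guides against Renilla, Mpo (-2.09), Ctsg (-1.03) and Prtn3 (-0.58), and Itgam (0.73) and Ptprc (0.37) were called higher. Of all tested genes, 3.21% were called lower and 7.77% higher. The myeloid markers Elane (-0.70), Kit (-0.46), Hoxa9 (0.06) and Meis1 (-0.01) were not called. Of the 18 libraries, 4 stand apart. Mpo, the granule enzyme myeloperoxidase, was at 1025 FPKM in replicate 3 of e12.3 and at 664 FPKM in replicate 3 of e21.1, against 133 to 384 FPKM in the other 10 guide libraries. Renilla replicate 1 and e20.1 replicate 2 had FPKM sums of 812480 and 899692, the highest of their groups. The sums of replicate 3 of e12.3 and e21.1 were 807212 and 847581, and those of all remaining libraries 726542 to 783854. Counts of members against each control are given with and without these 4 libraries.

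Levels per length spanned a wide range in control cells. With Renilla the means were 255 FPKM for B2m, 165 for H2-D1, 129 for Psmb8, 123.2 for H2-K1, 103 for Tap2, 42.4 for Tapbp, 30.9 for H2-T23, 21.3 for Psmb9, 17.8 for Tap1 and 0.0479 for Nlrc5. The Renilla values of H2-D1, Psmb8, H2-K1 and Tap2 overlapped from neighbour to neighbour in this order, as did those of H2-T23, Psmb9 and Tap1. B2m, Tapbp and Nlrc5 did not overlap with a neighbour.

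The comparison of the 4 Jmjd1c guides with Renilla asks which genes differ in cells with guides against this gene. The 3 heavy chains, B2m and Tapbp rose, which is 5 of the 9 tested members, and none fell, at a limma adjusted p under 0.05 over all 11550 tested genes. Of all tested genes, 7.77% were called higher and 3.21% lower. The median log2 difference was 0.40 over the 9 members and -0.03 over all tested genes. The transporter genes Tap1 and Tap2 and the proteasome genes Psmb8 and Psmb9 did not pass the test. In bulk RNA, more cells of a kind and more RNA per cell cannot be told apart. Without the 4 libraries that stand apart, 8 members were called, with Tap1, Psmb8 and Psmb9 added, beside 12.1% of all genes tested in that fit. Renilla replicate 1, among those left out, was the highest Renilla library in every tested member but B2m. Without the replicate 3 libraries of e12.3 and e21.1 the count was 5, beside 11.0% of all genes.

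**Figure D1:**
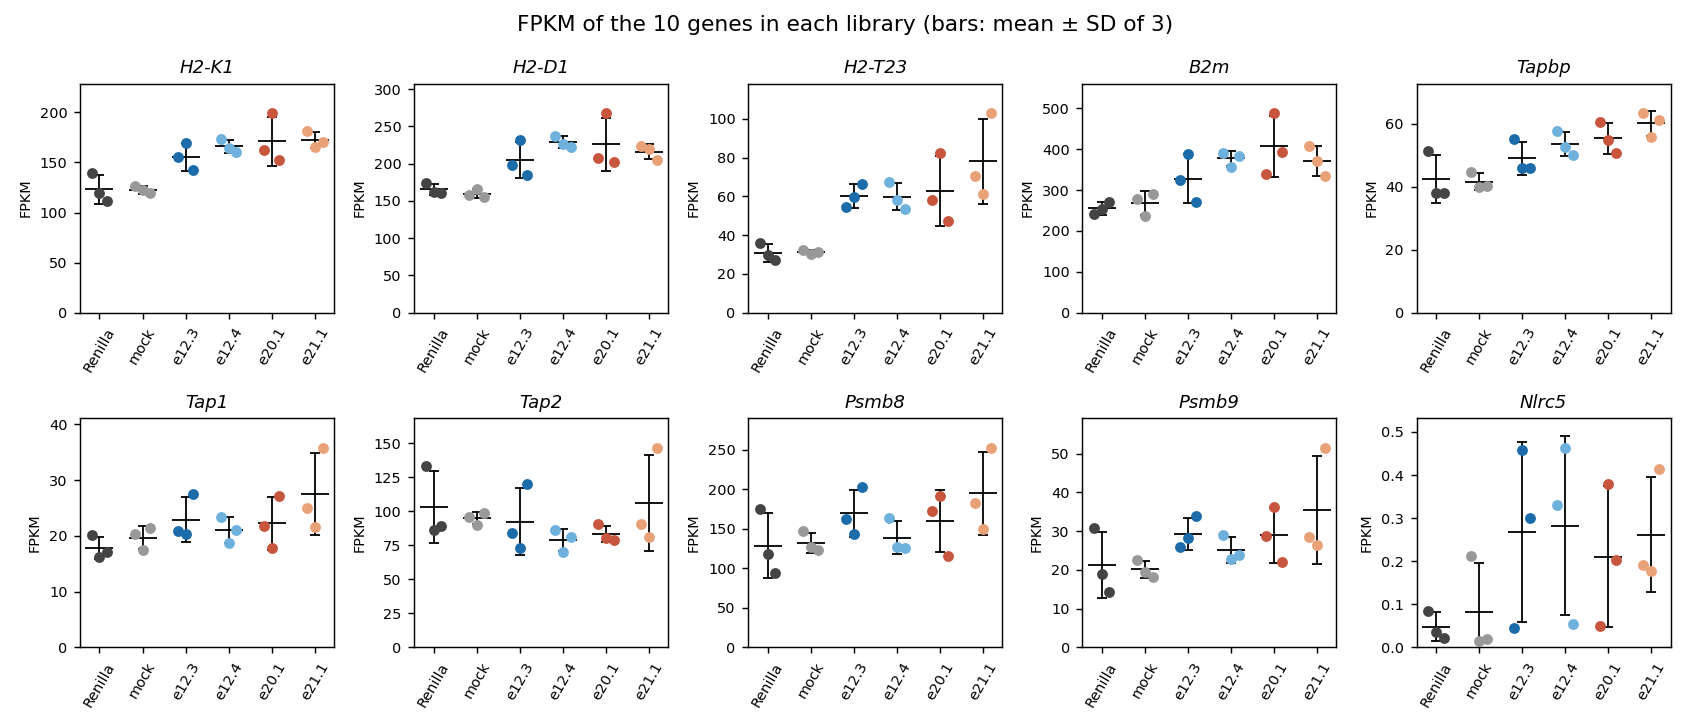
FPKM of each member in each of the 18 libraries. Points are libraries, in replicate order within a group, and bars are the group mean ± SD of 3. H2-K1, H2-D1 and H2-T23 lie above all Renilla libraries in all 12 guide libraries, as do 6.26% of all tested genes. They lie above mock too, for which no share of all genes is given. The guide libraries of Tap2 and Psmb8 overlap with the controls.

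H2-T23 had the largest difference in log2(FPKM + 1) among the 9 tested members. With Renilla, replicates 1 to 3 had 36.1, 29.7 and 26.9 FPKM, and with mock 32.2, 30.3 and 31.3 FPKM. With guides it stood at 54.5, 59.4 and 66.5 (e12.3), 67.6, 58.2 and 53.6 (e12.4), 58.1, 82.4 and 47.3 (e20.1) and 70.6, 61.0 and 103 FPKM (e21.1). All 12 guide libraries exceeded all 6 controls, with the lowest in e20.1 replicate 3 and the highest in e21.1 replicate 3. The log2(FPKM + 1) difference from Renilla was 1.03 (SE 0.15, limma adjusted p = 0.00030), and the mean rose from 30.9 to 65.2 FPKM.

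H2-K1 stood at 139, 119 and 111 FPKM with Renilla and at 126, 122 and 119 with mock. The guide values were 155, 169 and 142 (e12.3), 173, 165 and 160.4 (e12.4), 163, 199 and 152 (e20.1) and 182, 165 and 170.3 FPKM (e21.1). The lowest guide library, e12.3 replicate 3, was above the highest control, Renilla replicate 1. H2-K1 rose by a log2 difference of 0.43 (SE 0.08, limma adjusted p = 0.00287).

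H2-D1, the second classical heavy chain, stood at 174, 161 and 161 FPKM with Renilla and 158, 166 and 155 with mock. With guides it was at 199, 232 and 185 (e12.3), 238, 227 and 223 (e12.4), 208, 267 and 203 (e20.1) and 223, 219.5 and 204 FPKM (e21.1). Again all guide libraries were above all controls, and e12.3 replicate 3 was the lowest of them. The log2 difference was 0.40 (SE 0.08, limma adjusted p = 0.00527). H2-K1 and H2-D1 kept a similar proportion: their FPKM ratio was 0.691 to 0.801 with Renilla, 0.736 to 0.802 with mock and 0.720 to 0.834 with guides. Higher values without any overlap with Renilla occurred in 3 members, the 3 heavy chains, and in 6.26% of all tested genes. For values above Renilla and mock together no share of all genes is given.

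B2m, the light chain that every class I heavy chain needs at the cell surface, was the most abundant member. It stood at 240.1, 254 and 272 FPKM with Renilla and 278, 235 and 291 with mock. Guide libraries gave 323, 389 and 271 (e12.3), 391, 357 and 384 (e12.4), 340.3, 487 and 393 (e20.1) and 408, 370.0 and 334 FPKM (e21.1). All but e12.3 replicate 3 were above every control, and that library was level with Renilla replicate 3. B2m rose by 0.52 (SE 0.11, limma adjusted p = 0.00645) on the log2 scale.

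Tapbp encodes tapasin, which bridges the transporter and the heavy chain. Its values were 51.3, 37.91 and 37.96 FPKM with Renilla, where replicate 1 stood alone, and 44.6, 39.9 and 40.3 with mock. With guides they were 55.0, 46.0 and 45.8 (e12.3), 57.6, 52.7 and 50.0 (e12.4), 60.4, 54.7 and 50.7 (e20.1) and 63.2, 55.8 and 61.2 FPKM (e21.1). All 12 guide libraries were above the Renilla mean, and 8 of them above Renilla replicate 1. The log2 difference was 0.36 (SE 0.09, limma adjusted p = 0.0195), the smallest change among the called members. This call rests on single libraries: the limma adjusted p was 0.137 without Renilla replicate 2 and 0.124 without Renilla replicate 3. It also rests on the guide e21.1, without whose 3 libraries the limma adjusted p was 0.0697.

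**Figure D2:**
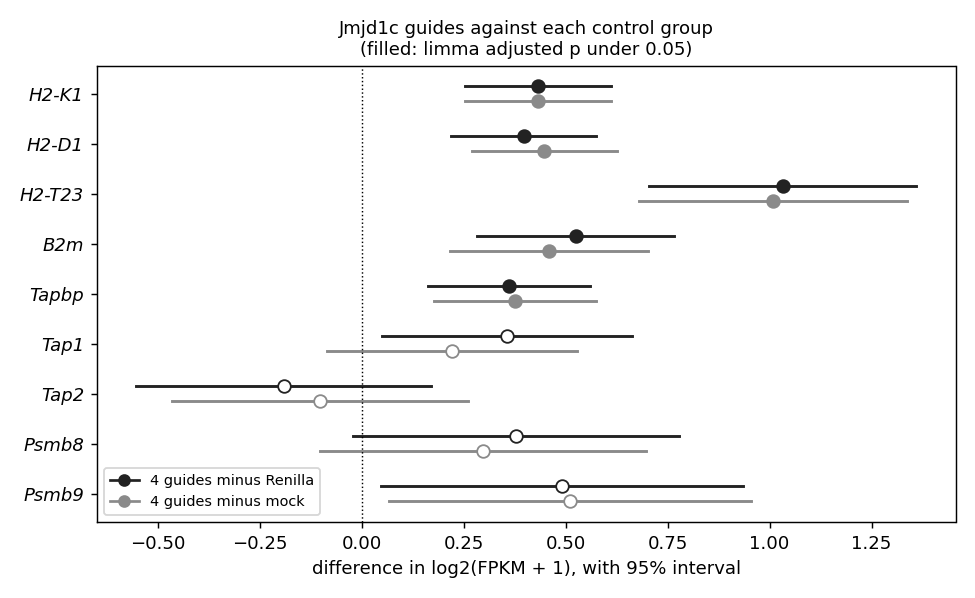
Difference in log2(FPKM + 1) between the 4 Jmjd1c guides and each control group for the 9 tested members. Points are limma estimates, lines 95% intervals, and filled points have an adjusted p under 0.05. H2-T23 stands farthest to the right at 1.03 against Renilla, and Tap2 is the one member left of 0.

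Neither gene of the peptide transporter passed the test. Tap1 stood at 20.097, 16.2 and 17.1 FPKM with Renilla, 20.2, 17.4 and 21.4 with mock, and between 17.7 and 35.7 FPKM (median 21.7) in the 12 guide libraries, of which 10 were above all Renilla libraries. Its log2 difference of 0.36 (SE 0.14, 95% interval 0.05 to 0.66) did not pass over all genes (limma adjusted p = 0.136, and 0.0199 without the 4 libraries that stand apart). Only 7 guide libraries were above all 6 controls, and the log2 difference of Tap1 from mock was 0.22 (limma adjusted p = 0.424).

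Tap2 was at 134, 86.1 and 89.6 FPKM with Renilla and 96.1, 90.1 and 99.0 with mock. With guides it was at 84.3, 72.8 and 120.5 (e12.3), 86.4, 70.4 and 80.8 (e12.4), 90.4, 80.5 and 79.1 (e20.1) and 90.5, 81.3 and 146 FPKM (e21.1). Of the guide libraries, 10 were below the Renilla mean, and the replicate 3 libraries of e12.3 and e21.1 were above it. The log2 difference was -0.19 (SE 0.17, limma adjusted p = 0.539), and without Renilla replicate 1 it was 0.0086 (limma adjusted p = 0.990). The Tap2 to Tap1 ratio within a library ran from 5.23 to 6.66 with Renilla, from 4.63 to 5.18 with mock and from 2.91 to 4.53 with guides, so that the guide libraries lay below all controls. Mock and Renilla did not overlap in this ratio either, with mock the lower. This ratio and those of the proteasome genes were picked after the values were seen and have no test.

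Psmb8 (LMP7) and Psmb9 (LMP2) are catalytic subunits of the immunoproteasome. Psmb8 stood at 174, 118 and 94.0 FPKM with Renilla, 147, 127 and 122.7 with mock, and between 116 and 252 FPKM (median 163) with guides. Psmb9 stood at 30.8, 18.9 and 14.3 FPKM with Renilla, 22.6, 19.5 and 18.2 with mock, and between 22.04 and 51.4 FPKM (median 28.4) with guides. Renilla replicate 1 was the highest Renilla library for both genes and overlapped with the guide libraries.

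The log2 differences were 0.38 (SE 0.19, limma adjusted p = 0.233) for Psmb8 and 0.49 (SE 0.21, limma adjusted p = 0.158) for Psmb9, so neither passed. For Psmb9 Renilla replicate 1 decides the call: without it the difference was 0.78 (limma adjusted p = 0.0388), and for Psmb8 it was then 0.62 (limma adjusted p = 0.0778). Without Renilla replicate 3 the differences were 0.18 for Psmb8 (limma adjusted p = 0.669) and 0.25 for Psmb9 (limma adjusted p = 0.555). Without all 4 libraries that stand apart, the limma adjusted p was 0.0374 for Psmb8 and 0.00421 for Psmb9.

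Relative to the constitutive subunits that they replace, both were higher in guide libraries. The ratio of Psmb8 to Psmb5 was 0.474 to 0.524 with Renilla, 0.543 to 0.600 with mock and 0.606 to 1.23 with guides. The ratio of Psmb9 to Psmb6 was 0.0951 to 0.144 with Renilla, 0.110 to 0.131 with mock and 0.156 to 0.363 with guides. Neither ratio overlapped between guides and controls. For Psmb8 to Psmb5, however, mock did not overlap with Renilla either, and no share of other gene ratios is given. For the remaining inducible subunit, the ratio of Psmb10 to Psmb7 was 0.226 to 0.361 with Renilla, 0.232 to 0.242 with mock and 0.272 to 0.387 with guides. It overlapped through Renilla replicate 1 (0.361), and the other 5 controls were below all guide libraries.

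**Figure D3:**
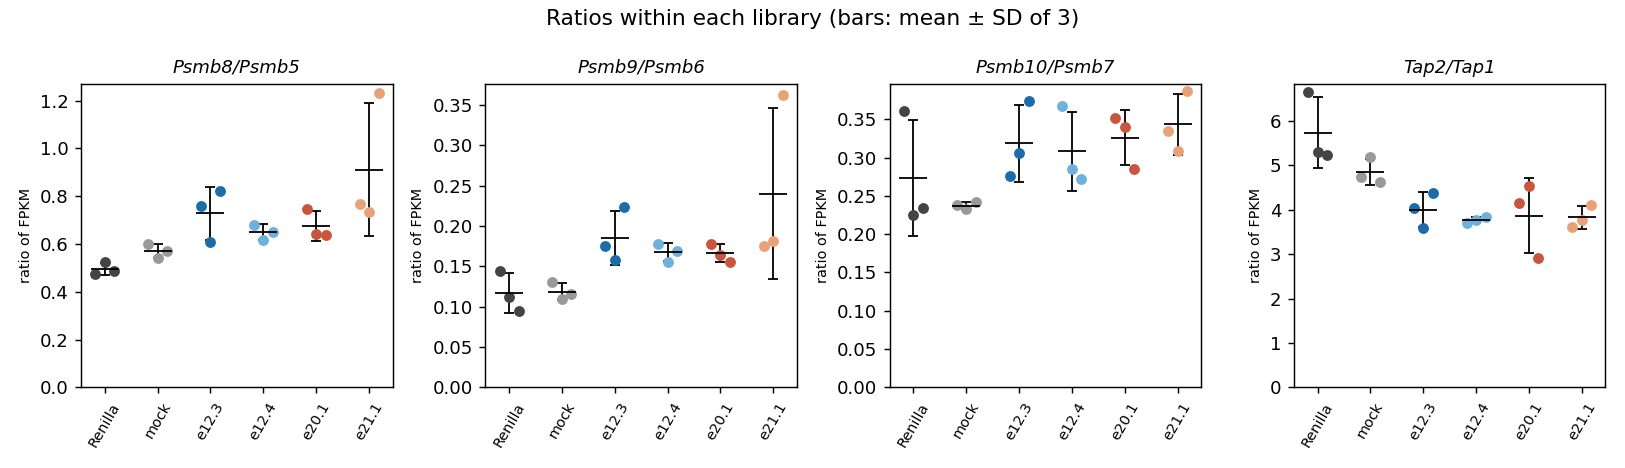
Ratios of FPKM within each library for 3 pairs of inducible and constitutive proteasome subunits and for Tap2 over Tap1. Points are libraries and bars the group mean ± SD of 3. The guide libraries lie above all controls for Psmb8 over Psmb5 and Psmb9 over Psmb6, and below all controls for Tap2 over Tap1. Mock and Renilla do not overlap with each other either for Psmb8 over Psmb5 and for Tap2 over Tap1.

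Nlrc5, the transactivator of class I genes, was under 1 FPKM in all 18 libraries, and its lowest values were close to the detection limit. It stood at 0.0851, 0.0361 and 0.0226 FPKM with Renilla and at 0.212, 0.0157 and 0.0183 with mock. With guides it was at 0.0443, 0.458 and 0.301 (e12.3), 0.330, 0.462 and 0.0549 (e12.4), 0.04998, 0.378 and 0.203 (e20.1) and 0.191, 0.177 and 0.415 FPKM (e21.1). Of the 12 guide libraries, 9 were above all Renilla libraries and 6 above all 6 controls, since mock replicate 1 was higher than the other controls. An exact two-sided permutation test of log2(FPKM + 1) gave a difference of 0.25 with p = 0.0484 against Renilla (455 arrangements) and 0.21 with p = 0.0813 against mock. On this scale values so far under 1 FPKM differ little: with 0.1 in place of 1 the difference from Renilla was 1.13 (exact permutation p = 0.0308), and the group means were 0.0479 and 0.255 FPKM. The first p is unadjusted and was above 0.05 in 16 of 25 alternatives. The exact p was 0.132 without Renilla replicate 2 and again without Renilla replicate 3. Leaving out e12.3 replicate 2 or 3 or e12.4 replicate 2 gave an exact p of 0.0577, and leaving out e12.4 replicate 1, e20.1 replicate 2 or 3, or any e21.1 library gave an exact p of 0.0604.

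Against mock, the other control, the same 5 members were called higher, beside 6.84% of all tested genes. The guide libraries are shared by both comparisons, so the values are given side by side and do not count as a repeat. The log2 differences from mock were 0.43 for H2-K1 (limma adjusted p = 0.00313), 0.45 for H2-D1 (0.00227), 1.01 for H2-T23 (3.98e-04), 0.46 for B2m (0.0174) and 0.38 for Tapbp (0.0176). Without the 4 libraries that stand apart, 6 members were called, with Psmb9 added, beside 13.9% of all genes. The count fell to 3 without mock replicate 2, when B2m and Tapbp were not called. Mock and Renilla themselves differed by -0.09 to 0.14 on the log2 scale over the 9 members, and limma called 0 of the 11550 genes between them (0.00%), with 127 at an unadjusted p under 0.05.

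Each guide was also compared with Renilla, and the 4 comparisons share the Renilla libraries. H2-T23 rose with every guide, by 0.94 with e12.3, 0.93 with e12.4, 0.97 with e20.1 and 1.28 with e21.1 (log2, limma adjusted p = 0.0111, 0.00683, 0.00645 and 4.40e-04). With only Renilla and the guide in the fit, the limma adjusted p was 0.0619 for e20.1, so that this call was lost, and 0.0409, 0.00689 and 0.0243 for e12.3, e12.4 and e21.1. It was the one called member with e12.3, where 3.03% of all tested genes were called higher. H2-K1, H2-D1 and B2m joined it with e12.4, where 5.57% of tested genes were called higher, and with e20.1, where 4.61% were. With e21.1, 5 members were called, Tapbp among them with a difference of 0.51, beside 7.06% of all tested genes. With only Renilla and the guide in the fit, H2-K1, H2-D1 and B2m were lost for e20.1 (limma adjusted p = 0.175, 0.187 and 0.0845). They were lost for e21.1 too (limma adjusted p = 0.106, 0.140 and 0.0863), as was Tapbp (0.150). In such a fit the calls with e12.4 stayed. Fewer of all genes were then called higher too, 374 of 11537 for e20.1 and 306 of 11555 for e21.1.

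These counts depend on single libraries, and no share of all genes is given for the fits with a single library left out. With e12.3 the count was 0 without Renilla replicate 3. With e12.4 the count of 4 was 1 without Renilla replicate 2 or e12.4 replicate 1, and 2 without e12.4 replicate 2 or 3. With e20.1 the count of 4 was 2 without Renilla replicate 2 or 3, and 1 without e20.1 replicate 2, the library with the highest H2-K1, H2-D1 and B2m. With e21.1 the count of 5 was 2 without Renilla replicate 2 and 3 without Renilla replicate 3 or e21.1 replicate 1. Without the 4 libraries that stand apart, the counts were 5 for e12.3, 6 for e12.4, 7 for e20.1 and 8 for e21.1. The shares of all tested genes called higher were then 6.57%, 10.5%, 7.84% and 10.1%.

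A guide that passes where another does not is not thereby shown to differ from it. The difference between the guides e20.1 and e21.1 on one side and both e12 guides on the other, which were paired by the start of their names, was tested directly. It was positive for all 9 members, from 0.02 for H2-D1 to 0.19 for Psmb9, and none was called, nor was any of the 11550 genes (0.00%, with 179 at an unadjusted p under 0.05). For H2-T23 the difference was 0.19 with a 95% interval of -0.11 to 0.48, and for Tapbp 0.17 with an interval of -0.01 to 0.35. An F test among the 4 guides called no member and none of all tested genes (0.00%), and so did the 6 tests of guide pairs.

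**Figure D4:**
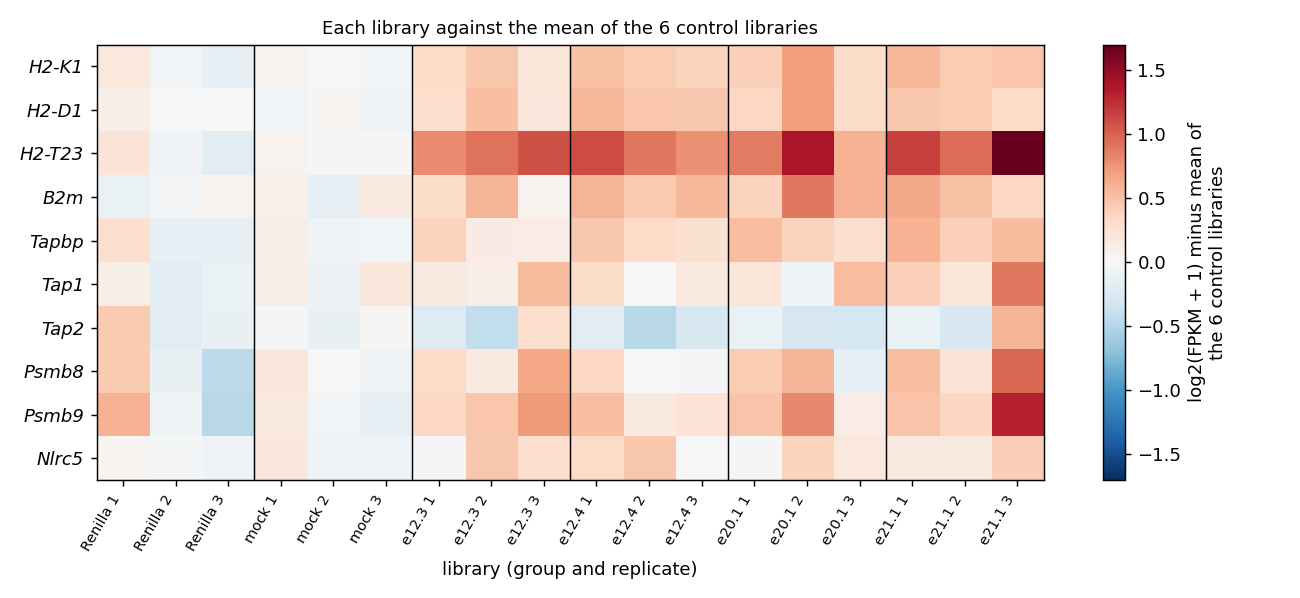
Difference of each library from the mean of the 6 control libraries in log2(FPKM + 1), for each member (rows) and library (columns). Red is higher and blue lower than the controls. H2-T23 is red in all 12 guide libraries, and the replicate 3 libraries of e12.3 and e21.1 are higher in Tap1, Tap2, Psmb8 and Psmb9 than the other libraries of their guides.

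The replicate 3 libraries of e12.3 and e21.1, with high Mpo, were also the deepest guide libraries. Their estimated depths were 67.2 and 75.3 M reads, against 22.8 to 43.5 M in the remaining guide libraries. They differed from the others of their guide in several members. Against the mean of those others, the differences were 0.40 and 0.60 in Tap1, 0.61 and 0.77 in Tap2, 0.40 and 0.60 in Psmb8 and 0.32 and 0.88 in Psmb9 (log2). H2-T23 differed by 0.22 and 0.64, and Tapbp by -0.13 and 0.04. H2-K1 differed by -0.19 and -0.03, H2-D1 by -0.21 and -0.12, and B2m by -0.39 and -0.22. The 4 genes that share 34.3 kb of chromosome 17 were thus higher in these libraries, as was H2-T23 outside that stretch, while the classical heavy chains and B2m were lower. The median over all tested genes was 0.03 and 0.01. Renilla replicate 1 was also the highest of its group in Tap1, Tap2, Psmb8 and Psmb9 and the lowest in B2m. But it was the highest in H2-K1, H2-D1, H2-T23 and Tapbp too, and so in every tested member except B2m. These are single libraries and no test was made.

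Members also varied together within groups, though not along 1 division. After the group means were subtracted, Pearson's r over the 18 libraries was 0.95 for Psmb8 with Psmb9, 0.86 for H2-K1 with H2-D1 and 0.79 for Tap1 with Tap2. It was 0.90 for H2-T23 with Psmb9, but -0.60 for H2-D1 with Tap1 and -0.53 for B2m with Tap2. H2-K1, in turn, had 0.56 with Psmb9, 0.53 with Psmb8 and 0.03 with Tap2, while Tap1 with Psmb8 had 0.37. The points share libraries and their depth, and the replicate 3 libraries of e12.3 and e21.1 weigh on these values, so they are a description.

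Over the 18 libraries, the genes most like the mean standardised level of the 9 tested members were Casp1 and Hexa (r = 0.97 each), Eif4e3 (0.97), Ostf1 (0.94) and Anxa6 (0.94), among the 9009 genes that averaged 5 FPKM or more. Casp1 encodes the inflammatory caspase-1 and had a log2 difference from Renilla of 0.73 (limma adjusted p = 0.00227), and Hexa encodes a lysosomal hexosaminidase subunit. After group means were subtracted, the closest were Zdhhc12 (r = 0.96), Hexa (0.96), Ssu72 (0.96), Zbtb8os (0.95) and Ubxn1 (0.94). These values rest on shared libraries and were chosen as the highest, so they carry no test.

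Other genes of the pathway were described from lists. Of 23 other class I and class I-like molecules, 19 were in the table and 9 were tested, of which 2 were called higher and none lower (median log2 difference 0.21), beside 7.77% of all tested genes called higher. Fcgrt, the heavy chain of the neonatal Fc receptor, which pairs with B2m, had 1.76 ± 0.272 FPKM with Renilla (SD, n = 3) and 5.48 ± 2.73 with guides (n = 12), a log2 difference of 1.16 (limma adjusted p = 8.57e-04). H2-T22, a ligand of some γδ T cells, rose by 0.42 (limma adjusted p = 0.00608). H2-T24 (0.35), H2-M3 (0.43) and H2-T10 (0.12) did not pass (limma adjusted p = 0.128, 0.253 and 0.445).

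No gene of the peptide loading and trimming list was called, with 13 of 13 tested and a median of -0.08. It included Erap1, the aminopeptidase that trims peptides (0.30, limma adjusted p = 0.242), Canx (-0.16), Pdia3 (-0.14), Lap3 (-0.31) and Thop1 (-0.18). The 4 other inducible proteasome genes were not called either (median 0.10, Psme1 at 0.25, Psmb10 at 0.13, Psme2 at 0.06 and Pomp at -0.04), and none of the 14 constitutive core subunits was (median -0.11). Among the latter, Psma3 was at -0.31, Psma5 at -0.26, Psmb5 at -0.18, Psmb6 at -0.16 and Psma1 at -0.13. At an unadjusted p under 0.05 stood Lap3 and Psma3, and no gene of the inducible list.

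Among 13 transcription factors of class I promoters, Irf2 was called higher against Renilla (0.69, limma adjusted p = 9.86e-04) and the median was -0.01. Irf2, which binds interferon response elements, stood at 19.8 ± 5.13 FPKM with Renilla, 25.3 ± 1.26 with mock (SD, n = 3 each) and 32.0 ± 3.79 with guides (n = 12), and against mock it did not pass (0.32, limma adjusted p = 0.120). Irf1 (0.26), Rela (0.14) and Creb1 (-0.25) were not called. Of 12 interferon receptors and signal transducers, 8 were called higher and none lower (median 0.40), and 5 were called higher against mock, beside 7.77% and 6.84% of all tested genes. Irf8, a factor of monocyte and dendritic cell development, rose by 1.81 (limma adjusted p = 1.20e-05), Irf7 by 0.92 (2.09e-04), Irf9 by 0.69 (0.00274), Jak2 by 0.55 (0.0125) and Jak1 by 0.31 (0.00691). Irf7 averaged 0.433 FPKM with Renilla, 0.577 with mock and 1.73 with guides, so it passed the filter of 1 FPKM only through guide libraries. Jak1 and Jak2 did not pass against mock (limma adjusted p = 0.0559 and 0.0664).

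Class II presentation had 8 of 13 genes tested, of which 7 were called higher (median 0.68), and 6 against mock, beside the same shares of all tested genes. Ctss, which encodes the protease cathepsin S, rose by 3.34 (limma adjusted p = 1.93e-08), and H2-DMa (0.72, limma adjusted p = 6.11e-04), H2-Oa (0.63, 0.0140), H2-DMb2 (0.63, 0.0156) and H2-DMb1 (0.46, 0.0308) rose too. H2-DMb1 did not pass against mock (0.27, limma adjusted p = 0.247). The class II transactivator Ciita was at 0.0669 FPKM or less in every library. Cd74, the invariant chain, was at 5.06 to 11.3 FPKM in 10 guide libraries but at 0.437 and 0.744 FPKM in the replicate 3 libraries of e12.3 and e21.1, those in which Tap1, Tap2, Psmb8 and Psmb9 were highest within their guide. With Renilla and mock Cd74 averaged 0.945 and 0.438 FPKM, so it too passed the filter only through guide libraries.

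**Figure D5:**
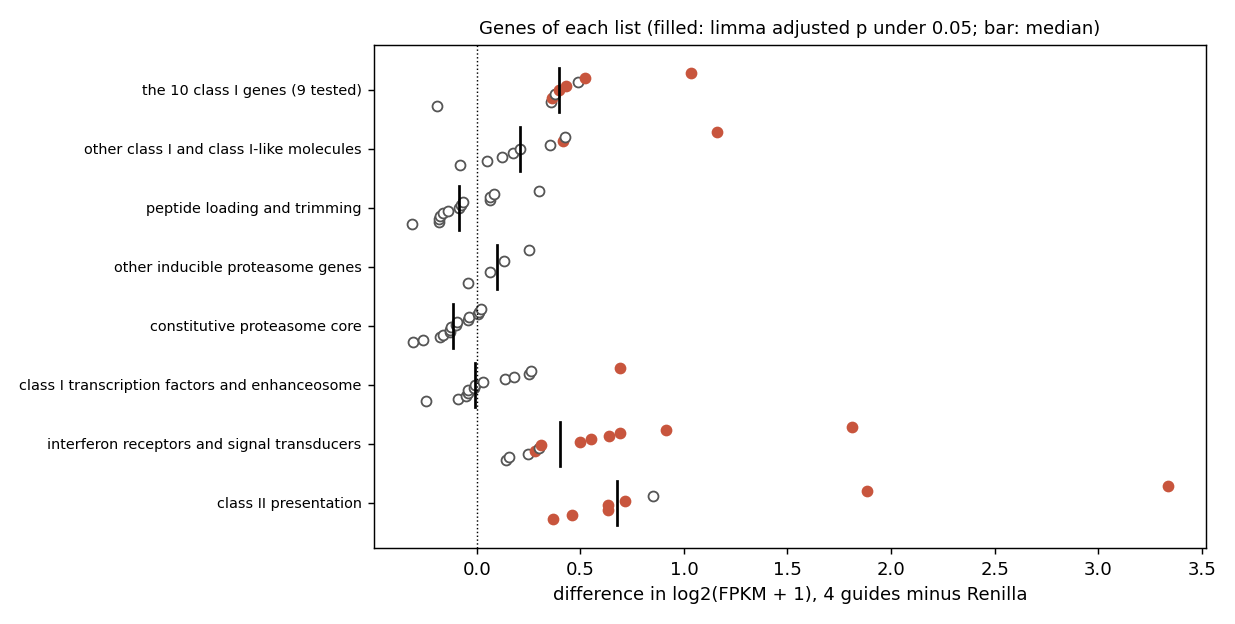
Difference in log2(FPKM + 1) between the 4 guides and Renilla for each tested gene of the 10 class I genes and of 7 lists of related genes. Points are genes, filled where the limma adjusted p is under 0.05, spread vertically only to be visible, and bars are list medians. The members have their median at 0.40, and peptide loading genes and constitutive proteasome subunits lie around 0.

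Markers of other cell types moved with the guides in part. Of 6 mature macrophage markers, 5 were in the table and 2 tested, Adgre1 (F4/80) and Csf1r, and both rose. The summed level of the list was 34.3 to 38.5 FPKM with Renilla, 38.3 to 42.8 with mock and 54.1 to 107 with guides, while Mertk, C1qb and C1qc were each under 1 FPKM in all 18 libraries. The dendritic list summed to 0.765 to 0.931 FPKM in controls and 0.828 to 3.26 with guides, and 6 of its 7 genes were under 1 FPKM in all 18 libraries. Itgax, the one tested, was called higher (0.91, limma adjusted p = 0.0306). It averaged 0.223 FPKM with Renilla, 0.209 with mock and 1.40 with guides. It thus passed the filter of 1 FPKM only through guide libraries, and its call is no separate support. In replicate 3 of e12.3 and e21.1 it was at 0.232 and 0.155 FPKM. The stromal and endothelial list summed to 10.2 to 14.4 FPKM in controls and 13.5 to 20.8 with guides. Of its 6 genes 2 were tested, and Pecam1 was called higher (0.70, limma adjusted p = 7.35e-04) but not Pdgfrb (0.05). T and NK cell markers summed to 0.799 to 2.38 FPKM over all 18 libraries, with 1 of 7 tested, and B cell markers to 0.397 to 1.02. Whether the lower granule genes or the higher monocyte and macrophage genes have a part in the class I values was not tested.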

How the data were processed

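Poly(A) RNA of 18 libraries was measured (TRIzol extraction and directional NEBNext libraries, per the labels' protocols). The authors deposited FPKM values, which were used as they stand. Per the submitters' processing notes, bcl2fastq 2.22.0.422, Salmon 0.13.0, mm10, R 3.5.3 and DESeq2 1.22.1 were named, with no order given. The series table was used, and 15 tables of single libraries matched it within 3.3222e-06 FPKM. FPKM are not counts, so no count model was run. Depth was estimated from the steps of low FPKM values in 1473 genes with 1 transcript. In every library 88.1% or more of these values came within 0.1 of whole reads (20% under an even spread).

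Values were transformed as log2(FPKM + 1). The 11550 genes that averaged 1 FPKM or more were fitted with limma-trend (limma 3.58.1, R 4.3.3) on group means of all 18 libraries, adjusted by Benjamini-Hochberg over all of them and called under 0.05. The 4 guides are weighted equally. Fold changes are on this scale, which understates low genes. The pipeline was tested on simulated data. Python 3.11.15, pandas 2.3.3, numpy 2.4.6 and, for figures, matplotlib 3.10.9 were used.

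The members and lists were chosen with earlier results of these data known. Named are all 10 members, at most 5 genes of each list with the smallest p, the 5 genes most like the members by each measure, and Jmjd1c, except 1 gene that is not reported here. Cd74, Ciita, H2-Q6, H2-Q7, the markers and the ratios were named after their values were seen. Alternatives were another pseudocount (0.1), no filter or a stricter one (5 FPKM in 3 libraries), other scalings, a replicate block, only the groups compared, pooled controls, and libraries or guides left out. The equal-sum scaling and the set of 4 libraries left out were added after the data were seen.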

Additional observations from a re-analysis of the deposited data

How the results depend on the processing

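H2-K1, H2-D1, H2-T23 and B2m were called for the 4 guides against Renilla in all 29 alternatives. The count of members called there was 5, and 8 without the 4 libraries that stand apart, with 4 to 6 when single libraries were left out. Leaving out single libraries gave counts of 0 to 1 for e12.3, 1 to 4 for e12.4, 1 to 5 for e20.1, 2 to 6 for e21.1 and 3 to 5 for the guides against mock. Without the 4 libraries that stand apart, the counts were 5 for e12.3, 7 for e20.1 and 8 for e21.1. With only the compared groups in the fit, e20.1 had 0 members and e21.1 had 1. Of all tested genes, 374 of 11537 were then called higher for e20.1 (533 of 11550 in the main fit). For e21.1 they were 306 of 11555 (815 of 11550 in the main fit). With equal FPKM sums e21.1 had 3 members. No share of all genes is given for single libraries left out or for the replicate block, so whether a changed call is particular to the members is not shown. The comparisons of mock with Renilla and among guides stayed at 0 members in all alternatives. Tap2 ran from -0.31 to 0.0086 with single libraries left out, and changed sign without Renilla replicate 1. Psmb9 was also called with Renilla and mock pooled as control (limma adjusted p = 0.0329). Other scalings moved the median of all tested genes from -0.027 to -0.012 (upper quartile) or -0.051 (equal sums). The replicate numbers were not taken as pairs, since all same-numbered correlations were over 0.1 in 4 of 15 group pairs only, although 17 of 18 libraries correlate best with their own number, a hint from the data. With the number as a replicate block the count of members was 6, as Tap1 was also called (limma adjusted p = 0.0277). The block gave 5 members for e12.4 and for e20.1, with Tapbp added, and 6 for e21.1, with Tap1 added. Depth, at 41.5 or more reads per FPKM of a 2 kb transcript, limits Nlrc5 most.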
